A study of Rattus norvegicus with 24 samples.

Results

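The zinc transporters and metallothioneins described here are 10 rat genes chosen by symbol. They are the importers Slc39a1, Slc39a5, Slc39a8, Slc39a10 and Slc39a14, the exporters Slc30a1, Slc30a5 and Slc30a7, and the metallothioneins Mt1 and Mt2A. A probe was matched to 9 of the 10, all but Slc39a10. The choice was made with measured values of these arrays known, namely the log2 signals of the 4 groups, in which Slc39a5 stood above control at each dose. For this reason the dose differences, their standard errors and their place against the study's threshold are given as a description, and no support is drawn from them. All 9 genes passed the filter on dim probes, with signals well above background on all 24 arrays, among 21255 genes or unnamed probes that passed it. The tissue was lung of Fischer-344 rats of both sexes, whose mRNA was measured on one-colour Agilent arrays, on which each Cy3-labeled RNA is hybridized alone. Control rats breathed filtered clean air. Exposed rats inhaled hexanal, a volatile aldehyde, for 4 h a day on 5 days a week, at 600 ppm in the low-dose, 1000 ppm in the middle-dose and 1500 ppm in the high-dose group. Each group had 6 rats, 3 males and 3 females, delivered at 7 to 8 weeks of age. The sample labels name the doses in ppm, as the study's methods do, while their treatment text puts these numbers in mg per m3 and names 5 weeks of exposure, a period that differs from the methods. Exposure was nose-only by the study's methods, and every rat is 1 array and counts as 1 replicate.

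Zinc enters the cytosol through the Slc39 (ZIP) family, from outside the cell or from organelles, and leaves it through the Slc30 (ZnT) family. Metallothioneins are small cysteine-rich proteins that bind zinc and other metals and buffer the free ion. The zinc-sensing factor MTF-1 binds metal response elements in the promoters of metallothionein genes and of Slc30a1, and metallothionein transcription is also known to respond to glucocorticoids and oxidative stress. In lung, zinc is known for its part in epithelial barrier function and inflammation.

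Mt1 and Mt2A are neighbours on chromosome 19, followed by Mt3 and Mt4 in the gene order of the rat assembly GRCr8. Their promoters are shown because these genes varied together among rats, and that of Slc30a1 because it is a textbook MTF-1 target outside the metallothionein family. Each sequence holds the 250 bases before the RefSeq transcription start, 5′ to 3′ in the direction of the gene, and capitals mark every match to the core of the metal response element, searched as TGCACNC and TGCGCNC on both strands. The Mt1 window lies at chr19:10832976-10833225 (minus strand), the Mt2A window at chr19:10838709-10838958 (minus strand) and the Slc30a1 window at chr13:106021769-106022018 (plus strand), all in GRCr8.
Mt1: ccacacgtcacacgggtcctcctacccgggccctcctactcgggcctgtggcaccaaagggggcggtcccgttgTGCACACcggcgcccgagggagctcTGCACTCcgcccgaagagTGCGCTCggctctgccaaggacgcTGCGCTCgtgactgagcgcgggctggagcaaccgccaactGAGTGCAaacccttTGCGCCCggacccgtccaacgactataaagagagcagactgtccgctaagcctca
Mt2A: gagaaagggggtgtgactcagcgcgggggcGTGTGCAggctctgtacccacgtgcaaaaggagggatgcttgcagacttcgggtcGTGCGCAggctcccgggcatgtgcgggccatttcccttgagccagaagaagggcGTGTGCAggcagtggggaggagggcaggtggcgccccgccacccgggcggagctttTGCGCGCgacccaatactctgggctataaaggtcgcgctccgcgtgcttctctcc
Slc30a1: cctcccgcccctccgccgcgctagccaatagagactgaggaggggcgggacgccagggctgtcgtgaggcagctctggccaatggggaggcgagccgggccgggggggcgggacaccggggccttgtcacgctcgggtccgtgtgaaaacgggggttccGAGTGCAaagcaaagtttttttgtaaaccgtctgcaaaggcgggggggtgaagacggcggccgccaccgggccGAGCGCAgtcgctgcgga
Mt1 held 6 matches, at 55 to 176 bases before the start, and Mt2A held 4, at 55 to 220 bases before it. At least 1 match was present in 20.6% of the 33469 promoters of the same length in the table, at least 4 in 0.266% and at least 6 in 0.0269%. Slc30a1 had 2 matches, Slc30a5 had 2 that overlap each other on opposite strands, Slc39a1 had 1, and Slc39a5, Slc39a8 and Slc39a10 had none of these letters in the window. At least 2 matches were present in 4.9% of promoters. The windows of Mt1, Mt2A, Slc39a1, Slc30a1 and Slc30a5 held 21 to 30 CpG and 66 to 69.6% G and C. The medians over all promoters were 5 CpG and 51.2%. Slc39a5 held 2 CpG and 50.8%, Slc39a10 held 6 CpG and 45.6%, and Slc39a8 held 11 CpG and 59.2%. The table matched 8 of the 10 genes, and a match of letters is a description, not evidence of a bound site.

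All levels below are log2 signals relative to the 75th percentile of the same array, so they can be compared between rats but not between genes. Over the 24 arrays that percentile ran from 1701 to 3133, 70.7 to 81.7% of probes were well above background, and no spot was saturated. The 8 lung markers, which include surfactant, club cell, ciliated cell and endothelial genes, were all measured, and the log2 of their summed level lay between 8.91 and 9.38 in the 24 rats, so the defining genes of the labelled tissue were present. The log2 summed level of the 9 measured heart muscle markers, of 10 listed, differed widely between rats, from 1.79 to 5.24 in the control group and from 1.82 to 7.08 at 1500 ppm, with a median of 2.75 in the control group and 5.69 at 1000 ppm. The arrays lay on 6 slides of 4, each of 1 sex, and only 2 of the 18 exposed rats shared a slide with control rats, so most of a dose difference cannot be told apart from a difference between slides. Precision is limited by the number of arrays.

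**Figure D1:**
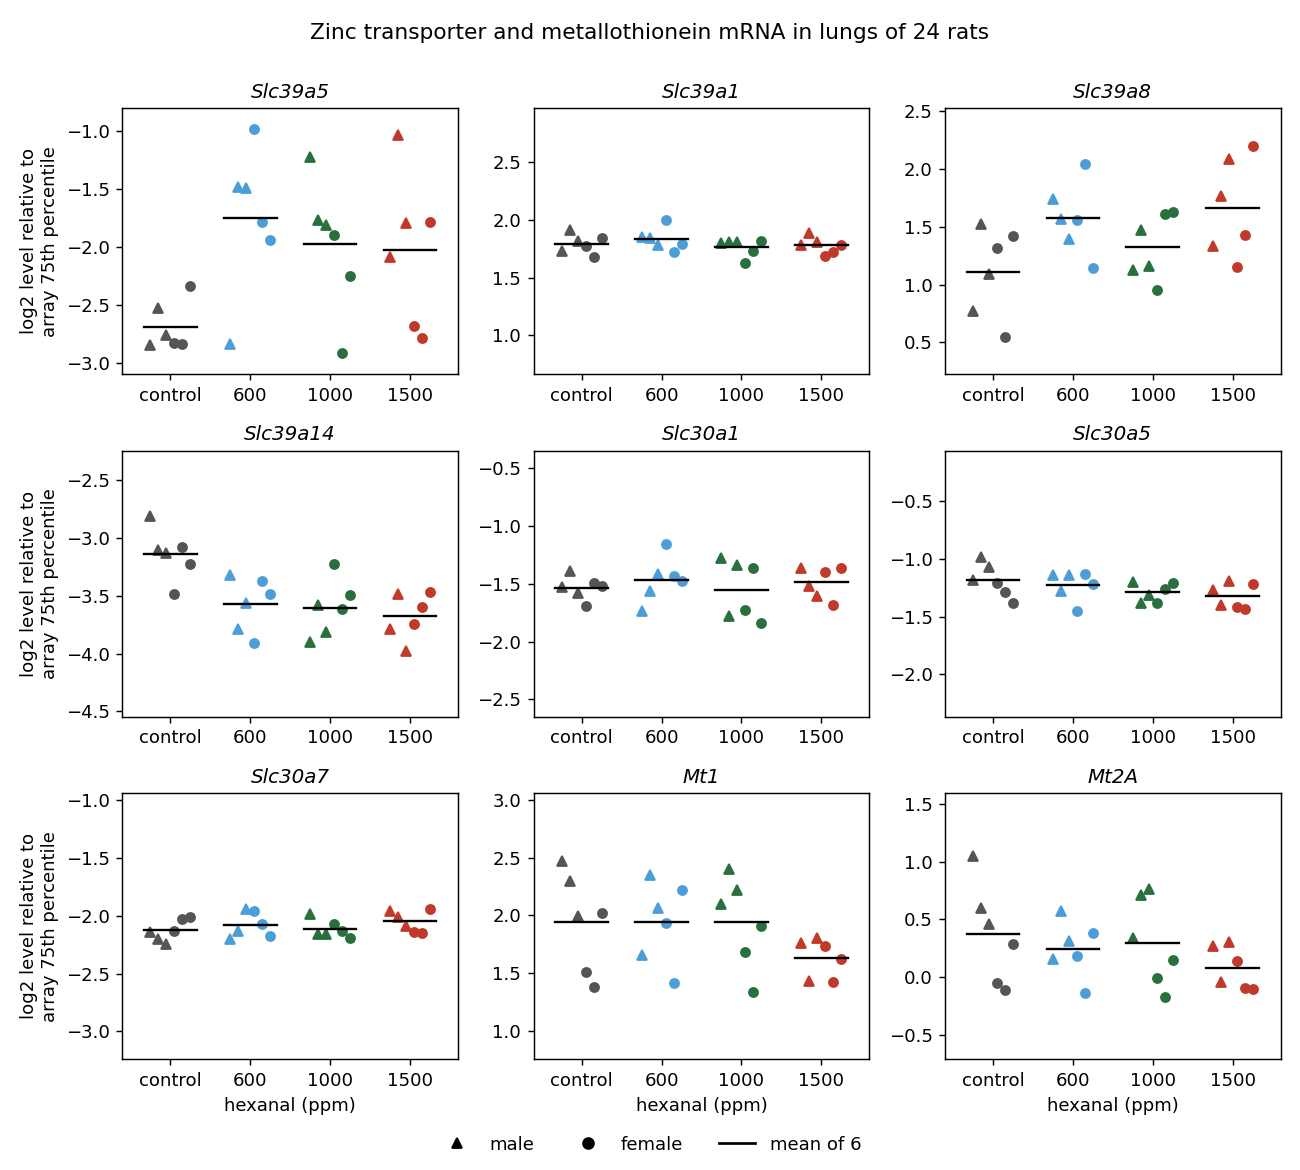
Level of each measured gene in every rat, as log2 signal relative to the 75th percentile of its array, against hexanal dose; triangles are males, circles are females, and the line is the mean of 6 rats. All panels span the same range. The exposed means lie farthest from the control mean for Slc39a5, Slc39a8 and Slc39a14 (brighter probe), and the groups overlap in each. The control means of these genes are -2.69, 1.11 and -3.14.

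Slc39a5, a zinc importer best known from the intestine and pancreas, was the one gene of the 9 past the study's threshold with both sexes together. That threshold is a fold change of at least 1.5 with an unadjusted p-value under 0.05. Slc39a5 was higher at each dose, and its limma p-values adjusted over all genes were 0.997, 0.515 and 0.692 in the order of doses. One gene of 9 was therefore called at 600 ppm, at 1000 ppm and at 1500 ppm, where 0.616%, 1.63% and 1.22% of all genes were called in either direction, and nothing is read from these counts because Slc39a5 was known to pass when the genes were chosen. In the control group its level was -2.85, -2.53 and -2.76 in the males and -2.83, -2.84 and -2.34 in the females. At 600 ppm it was -2.84, -1.48 and -1.49 in the males and -0.98, -1.78 and -1.94 in the females. Thus 5 of 6 low-dose rats lay above every control rat, and 1 male lay within the control range. At 1000 ppm it was -1.22, -1.77 and -1.81 in the males and -1.90, -2.92 and -2.25 in the females. At 1500 ppm it was -2.09, -1.03 and -1.79 in the males and -2.68, -2.79 and -1.78 in the females. Above every control rat lay 5 of 6 rats at 1000 ppm and 4 of 6 at 1500 ppm. Each exposed group had 1 rat below the control mean, and at 1000 ppm that rat (-2.92) lay below every control rat. The range of every exposed group therefore overlapped the control range.

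The limma difference of Slc39a5 from control was 0.94 ± 0.30 (SE, log2) at 600 ppm, 0.71 ± 0.30 at 1000 ppm and 0.66 ± 0.30 at 1500 ppm, or 1.92-, 1.64- and 1.58-fold. The differences did not increase with dose, and they lay within 1 SE of each other. In males the differences were 0.78, 1.11 and 1.07 ± 0.38 (SE) in the order of doses, and in females they were 1.11, 0.31 and 0.26 ± 0.38. The exposed rats also varied more, with SDs of 0.62, 0.57 and 0.65 (n = 6 each) against 0.21 in the control group, and the pooled SD of 0.54 was larger than that of 90.6% of all genes. In bulk lung, a change in the number of cells of a type and a change in RNA per cell cannot be told apart for this or any other gene here.

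The place of Slc39a5 past the threshold rested on single rats at the higher doses. At 1000 ppm it was not past it without rat 11, a middle-dose male, where the difference was 0.56. At 1500 ppm it was not past it without any 1 of 7 rats, and the difference was then 0.63 without control rat 1, 0.65 without rat 3, 0.64 without rat 21 and also without rat 22, and 0.47, 0.62 and 0.61 without high-dose rats 17, 18 and 38. With normexp in place of the deposited background subtraction the differences were 0.62, 0.37 and 0.40, and Slc39a5 was past the threshold only at 600 ppm. With no scaling between arrays it was 0.60 at 1500 ppm and not past it.

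**Figure D2:**
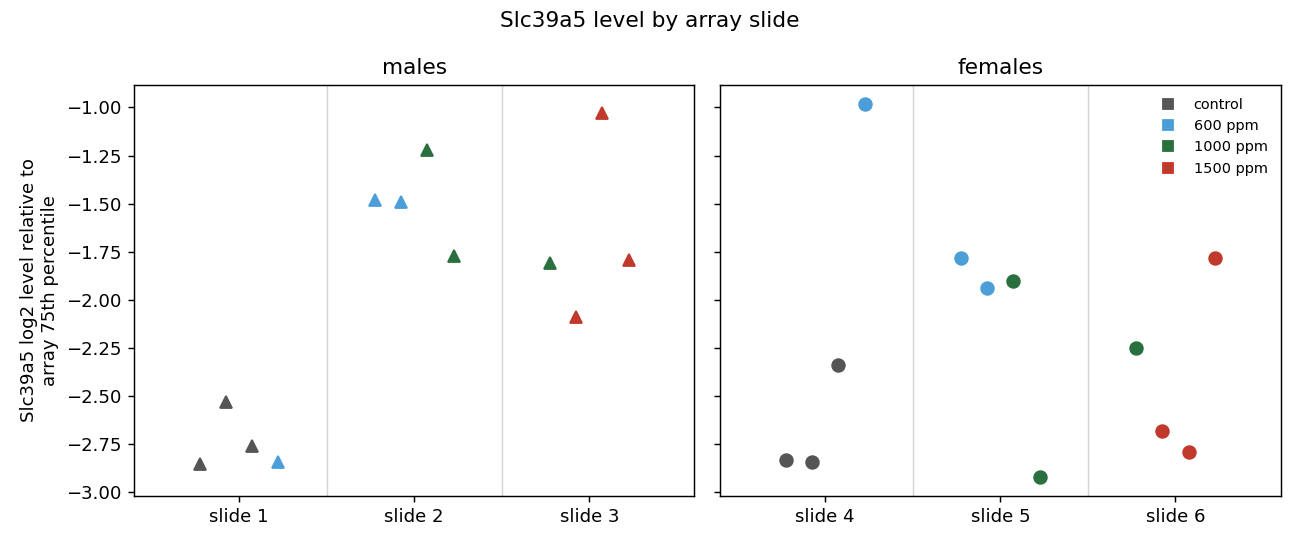
Slc39a5 level in each rat, as log2 signal relative to the 75th percentile of its array, by array slide, with males on slides 1 to 3 and females on slides 4 to 6; colours are the dose groups. The low-dose male on the slide of the control males sits at -2.84 beside them, and the low-dose female on the slide of the control females sits at -0.98, above them.

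The 2 exposed rats that shared a slide with controls differed in opposite directions for Slc39a5. The low-dose male differed by -0.12 from the mean of the 3 control males on its slide, and the low-dose female by 1.69 from the mean of the 3 control females on hers. On the slides that held 2 low-dose and 2 middle-dose rats, the middle-dose mean differed by -0.02 in males and -0.55 in females, and on the slides with 1 middle-dose and 3 high-dose rats, the high-dose mean differed by 0.17 in males and -0.16 in females. With the slide as a fixed block the differences from control were 0.78 ± 0.37 (SE), 0.50 ± 0.49 and 0.51 ± 0.62, and no dose was called. With the slide as a random block they were 0.88 ± 0.30, 0.64 ± 0.33 and 0.63 ± 0.36, and only 600 ppm was called. Slc39a5 is abundant in pancreas, and of 5 pancreas acinar markers Pnlip was well above background on no array and Prss1 on 3 of 24. The correlation of Slc39a5 with the summed level of the 3 measured acinar markers over 24 rats, around the dose group means, was -0.29. The log2 summed acinar level was higher at each dose, with a median of -0.06 in the control group (-0.28 to 0.53) and of 0.35 (-0.08 to 1.02), 0.53 (0.00 to 1.18) and 0.51 (-0.36 to 1.47) in the order of doses. Of its 3 genes, Ctrb1 had a mean of -0.70 in the control group and of -0.11, 0.02 and 0.22 in the exposed groups, Cela1 of -1.53 and of -1.38, -1.59 and -1.77, and Cpa1 of -6.00 and of -6.08, -6.23 and -5.68. With the heart muscle markers the correlation was -0.42 for Slc39a5, -0.49 for Slc39a8 and 0.42 for Slc39a14. It was as far from 0 for Slc30a7 (-0.57) and Slc30a1 (-0.48), whose dose differences were small. For Slc39a1, Slc30a5, Mt1 and Mt2A it lay between -0.25 and 0.21. With the lung markers the correlations ran from -0.45 for Slc39a14 to 0.63 for Slc30a1. The part of these markers in the dose differences was not tested.

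Slc39a8, a zinc and manganese importer of lung epithelium and macrophages, had higher means at each dose without reaching the 1.5-fold threshold. Its level ranged from 0.55 to 1.52 (median 1.20) in the control group, from 1.14 to 2.04 (median 1.57) at 600 ppm, from 0.95 to 1.63 (median 1.32) at 1000 ppm and from 1.15 to 2.20 (median 1.60) at 1500 ppm. Every low-dose and high-dose rat lay above the control mean of 1.11, but each group overlapped the control range. The differences were 0.46, 0.22 and 0.55 ± 0.20 (SE), or 1.38-, 1.16- and 1.46-fold. On the slides shared with controls, the low-dose male was 0.62 above the control males and the low-dose female 0.47 above the control females. At 1500 ppm Slc39a8 passed the threshold when rat 2, 21, 23, 16, 36 or 37 was left out.

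Slc39a14, an importer of zinc, manganese and iron that is known to be induced in inflammation, gave 2 answers, one for each of its probes. The brighter probe was lower at each dose. It read -3.48 to -2.81 (median -3.11) in the control group, -3.91 to -3.32 (median -3.52) at 600 ppm, -3.90 to -3.22 (median -3.59) at 1000 ppm and -3.98 to -3.47 (median -3.67) at 1500 ppm. All 18 exposed rats lay below the control mean, and 4, 5 and 4 of 6 lay below every control rat in the order of doses. Its differences were -0.44, -0.47 and -0.54 ± 0.13 (SE), or 1.35-, 1.38- and 1.45-fold lower, short of the fold threshold. They were -0.55, -0.75 and -0.74 ± 0.17 in males and -0.33, -0.18 and -0.34 ± 0.17 in females, and the sex difference of this effect did not pass in limma at 1000 ppm (0.58 ± 0.24, adjusted p = 0.467) or at 1500 ppm (0.40 ± 0.24, adjusted p = 0.377). The brighter probe was past the threshold at 1000 ppm with normexp (-0.60), at 1500 ppm with no scaling between arrays (-0.60) and at 1500 ppm without control rat 21 (-0.61). In the fit by dose and sex it was also past the threshold in males at 1000 and 1500 ppm, and in females at no dose.

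The dimmer Slc39a14 probe read -5.03 to -4.15 (median -4.87) in the control group, -5.09 to -4.53 (median -4.78) at 600 ppm, -4.98 to -3.77 (median -4.53) at 1000 ppm and -5.08 to -4.33 (median -4.61) at 1500 ppm. Its differences from control were -0.10, 0.24 and 0.02 ± 0.19 (SE), and all groups overlapped. Deviations of the probes from their dose group means had a correlation of 0.18 over 24 rats. Which of the transcripts of Slc39a14 each probe reads is not given in the files. The brighter probe was also lower within the shared slides, with differences of -0.31 in the low-dose male and -0.64 in the low-dose female.

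**Figure D3:**
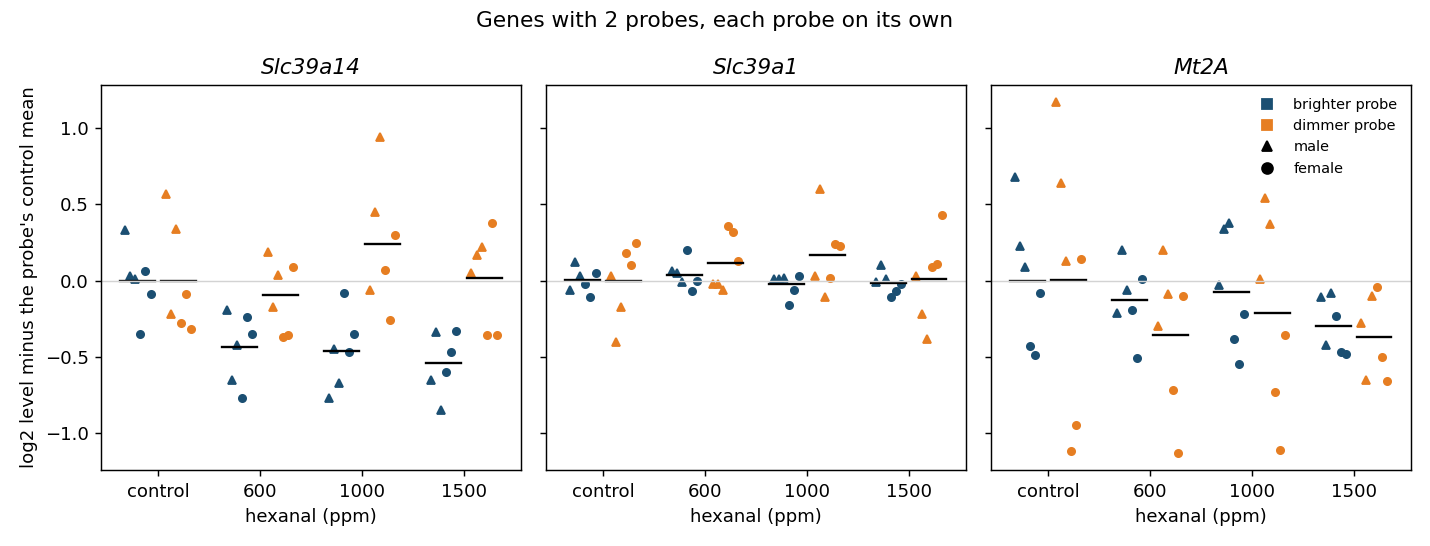
Level of each probe minus the mean of that probe in the control group (log2), in every rat by dose, for the 3 genes with 2 probes; blue is the brighter and orange the dimmer probe, triangles are males, circles are females and lines are means of 6. The Slc39a14 probes part at each dose, whereas the Mt2A probes vary alike with a wider range for the dimmer one.

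Slc39a1, an importer of the plasma membrane present in most cells, had the smallest spread of the 9 as measured by its brighter probe. Its levels lay between 1.63 and 2.00 over all 24 rats, its differences were 0.04, -0.02 and -0.02 ± 0.06 (SE), and its pooled SD of 0.08 was above that of only 2.82% of all genes. Its brighter probe is a mean of 10 spots, whereas the probe used for each other measured gene has 1 spot. The share of this averaging in the small spread was not tested. Its dimmer probe, with 1 spot, ran from -2.95 to -1.96 and gave differences of 0.12, 0.17 and 0.01 ± 0.14. The 2 probes had a correlation of -0.16 around the group means.

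The 3 exporters had differences from control of at most 0.14 in size. Slc30a1, which carries zinc out across the plasma membrane, ranged from -1.69 to -1.39 (median -1.53) in the control group and from -1.84 to -1.16 over the 18 exposed rats, with differences of 0.07, -0.02 and 0.05 ± 0.10 (SE). Slc30a5, which loads zinc into the early secretory pathway, had differences of -0.04, -0.10 and -0.14 ± 0.07, and all 6 rats at 1000 ppm and all 6 at 1500 ppm lay below its control mean of -1.19. Slc30a7, a Golgi zinc transporter, had differences of 0.05, 0.01 and 0.08 ± 0.06. The 95% intervals of these 9 differences lay between -0.29 and 0.29. With normexp the differences of Slc30a7 turned to -0.09, -0.15 and -0.04, those of Slc30a1 were -0.05, -0.21 and -0.09, and those of Slc30a5 were -0.15, -0.27 and -0.25. With the slide as a fixed block Slc30a5 was at -0.11, -0.22 and -0.28.

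**Figure D4:**
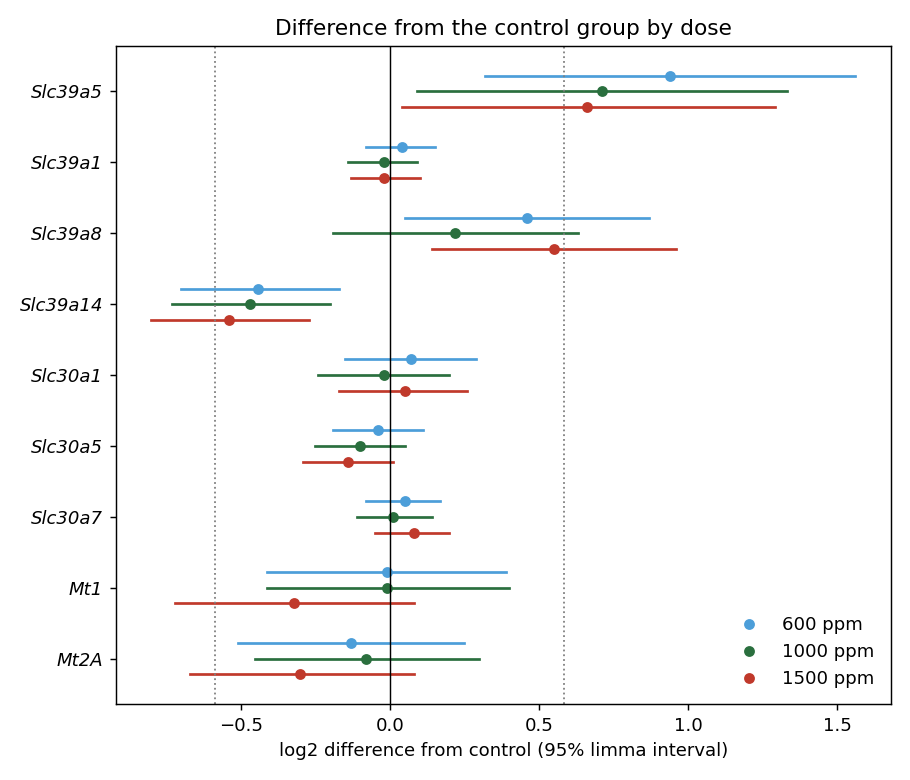
Difference of each measured gene from the control group (log2, points) with its 95% limma interval (lines) at 600, 1000 and 1500 ppm; dotted lines mark 1.5-fold. Slc39a5 lies beyond the dotted line at each dose, from 0.66 to 0.94, and the 3 Slc30 genes lie within -0.14 to 0.08.

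Mt1 and Mt2A, the metallothioneins expressed in most tissues, were not called at any dose with both sexes together. Mt1 ranged from 1.38 to 2.47 (median 2.00) in the control group, from 1.41 to 2.35 (median 1.99) at 600 ppm, from 1.34 to 2.40 (median 2.01) at 1000 ppm and from 1.42 to 1.80 (median 1.67) at 1500 ppm. Mt2A ranged from -0.11 to 1.05 (median 0.38), from -0.14 to 0.57 (median 0.25), from -0.17 to 0.76 (median 0.25) and from -0.10 to 0.30 (median 0.05) in the same order. All 6 high-dose rats lay below the control mean of both genes and within the control range. The high-dose SDs over both sexes were 0.17 for Mt1 and 0.18 for Mt2A against 0.43 and 0.44 in the control group. Within males and females they lay closer, at 0.20 and 0.16 against 0.25 and 0.34 for Mt1. For Mt2A they were 0.19 and 0.14 against 0.31 and 0.22 (n = 3 each). The Mt1 differences were -0.01, -0.01 and -0.32 ± 0.19 (SE), and those of Mt2A were -0.13, -0.08 and -0.30 ± 0.18. With the slide as a fixed block they were -0.15 ± 0.23, -0.29 ± 0.31 and -0.72 ± 0.39 for Mt1, and -0.20 ± 0.20, -0.27 ± 0.26 and -0.64 ± 0.32 for Mt2A. With normexp Mt1 was at 0.10, 0.13 and -0.21.

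By sex, the high-dose differences of the metallothioneins were farther from 0 in males. In males Mt1 differed by -0.59 ± 0.22 (SE) and Mt2A by -0.53 ± 0.17 at 1500 ppm, whereas in females the values were -0.05 ± 0.22 and -0.06 ± 0.17. Of these values only that of Mt1 in males was past the study's threshold. The sex difference of this effect was 0.54 ± 0.31 for Mt1 (adjusted p = 0.358) and 0.47 ± 0.25 for Mt2A (adjusted p = 0.295) in limma's 8-group fit, so it was not shown. No control rat shared a slide with a high-dose rat, and the other high-dose comparisons within a slide were -0.32 for Mt1 and -0.17 for Mt2A in females. On the slide of 3 high-dose males and 1 middle-dose male the high-dose mean differed by -0.55 for Mt1 and -0.58 for Mt2A. The second Mt2A probe gave -0.36, -0.21 and -0.37 ± 0.34 (SE) in the order of doses, and the gene table lists 3 Mt1 pseudogenes, whose share of the Mt1 signal was not tested.

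Sex was not part of how the genes were chosen, and 2 of the 9 genes differed between the sexes at an adjusted limma p-value under 0.05, where 26.6% of all genes did. The count is no higher than that share, and nothing is read from it about the genes as a set. Both genes were metallothioneins, which also varied together among rats, and both were lower in females. Mt1 ranged from 1.43 to 2.47 (median 2.08) in 12 males and from 1.34 to 2.22 (median 1.65) in 12 females, and Mt2A from -0.04 to 1.05 (median 0.40) in males and from -0.17 to 0.38 (median -0.03) in females. The female mean was lower in each of the 4 dose groups for both genes, and the ranges of the sexes overlapped. The difference was -0.36 ± 0.11 (SE, adjusted p = 0.0217) for Mt1 and -0.42 ± 0.09 (adjusted p = 0.00225) for Mt2A, 1.29- and 1.34-fold. The second Mt2A probe gave -0.74 ± 0.17 (limma adjusted p = 0.00357). Each slide held 1 sex, and with the slide as a random block Mt1 was no longer called (adjusted p = 0.0713) while Mt2A was (adjusted p = 0.0139).

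The other 7 genes had sex differences between -0.28 (Slc39a5, SE 0.19) and 0.05 (Slc39a14, SE 0.08), none past the threshold. These values are those of the brighter probe where a gene had 2. The dimmer probe of Slc39a1 was higher in females by 0.26 ± 0.08 (limma adjusted p = 0.0196), unlike its brighter probe at -0.05 ± 0.04. The dimmer probe of Slc39a14 was lower in females, at -0.34 ± 0.12 (limma adjusted p = 0.0511), unlike its brighter probe. None of the 9 genes had a 1500 ppm difference that differed between the sexes, where 5.01% of all genes did. The largest of these interactions was that of Slc39a5, -0.82 ± 0.54 (SE, limma adjusted p = 0.424), with a 95% interval of -1.96 to 0.32.

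Mt1 and Mt2A varied together from rat to rat. Around the dose group means their deviations had the same sign in 23 of 24 rats and spanned -0.60 to 0.52 for Mt1 and -0.49 to 0.68 for Mt2A. Pearson's r was 0.94 and Spearman's rho 0.94 over 24 rats, each with a permutation p of 1e-05, the smallest that 100000 permutations within dose groups can give, and 0.00036 after Benjamini-Hochberg adjustment over the 36 pairs of measured genes. Without the 2 rats farthest from the median of Mt1, r was 0.92. It was 0.94 around slide means, 0.89 around the means of dose and sex, 0.85 in males and 0.97 in females. The probes of these near neighbours were not checked for binding each other's RNA.

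**Figure D5:**
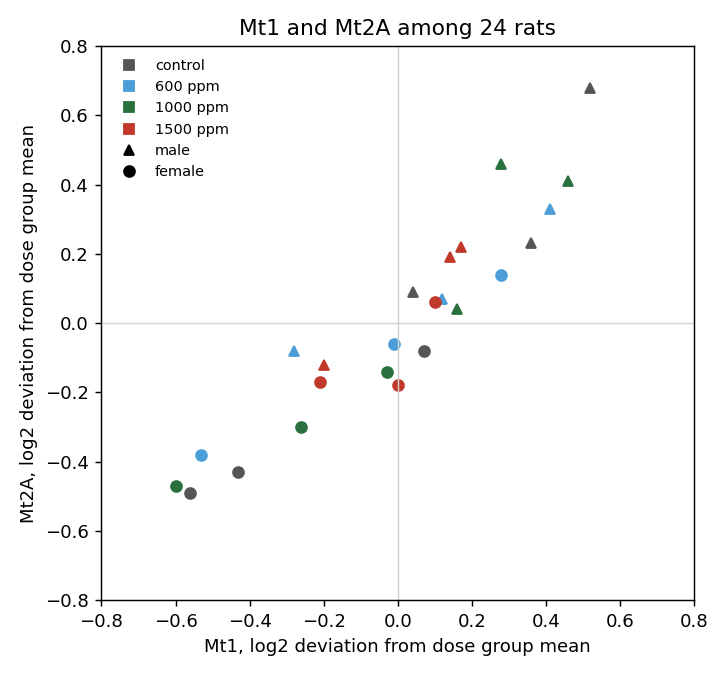
Deviation of Mt1 (x axis) and Mt2A (y axis) from the dose group mean (log2) in each of 24 rats; colours are dose groups, triangles are males and circles are females. The points lie along a line (r = 0.94), with most females at the lower left and most males at the upper right.

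No other pair passed the adjusted threshold. The next was Slc39a5 with Slc30a7 (r = 0.59, rho = 0.63, permutation p = 0.00522 and 0.00327, adjusted p = 0.094 and 0.0589; r = 0.55 without rats 6 and 17 and 0.45 around slide means). Slc30a1, the other MTF-1 target, had r = 0.08 with Mt1 and 0.07 with Mt2A (permutation p = 0.731 and 0.779). Among 12411 genes with a symbol and values on all arrays, the deviations most like those of Mt1 were those of Mt2A (r = 0.94), Cebpd (0.77), a transcription factor of the acute phase response, and Acer2 (0.75), a Golgi ceramidase. Those most like Mt2A were Mt1, Fam110a (0.82) and Mboat2 (0.80), the last with 0.26 around slide means. For Slc39a5 they were Rsbn1l (0.76), Fis1 (0.70), a mitochondrial fission adaptor, and Man1c1 (0.69), a Golgi mannosidase. These are descriptions over 24 rats that share slides.

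Of 19 other zinc genes, the remaining Slc30 and Slc39 transporters with Mt3, Mt4 and Mtf1, 17 had a matched probe and 13 passed the filter. None of the 13 was called at 600, 1000 or 1500 ppm by limma, and 0, 0 and 1 had an unadjusted p-value under 0.05, as did 4.35%, 8.98% and 6.96% of all genes. That 1 was Slc30a3, a transporter of synaptic vesicles, at 0.23 ± 0.10 (SE). The differences of the 13 ran from -0.17 to 0.22, from -0.16 to 0.20 and from -0.33 to 0.25 in the order of doses, with medians of 0.04, -0.03 and 0.06, against medians of 0.00, 0.00 and 0.01 over all genes. The medians of the 9 genes described above were 0.04, -0.02 and -0.02. Mtf1, which encodes MTF-1, had differences of 0.04, 0.03 and -0.16 ± 0.12. Mt4, a metallothionein of stratified epithelia, was well above background on no array, Slc30a8, the transporter of pancreatic beta cell granules, on 2 of 24, Slc30a10 on 8 and Slc30a2 on 12.

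Between the sexes, 6 of these 13 genes differed in limma (adjusted p under 0.05), where 26.6% of all genes did. Lower in females were Slc39a2 (-0.59 ± 0.14, SE, adjusted p = 0.00502), Slc39a4 (-0.42 ± 0.08, adjusted p = 0.00183), Mtf1 (-0.32 ± 0.05, adjusted p = 0.000273), Slc39a6 (-0.25 ± 0.05, adjusted p = 0.00121) and Slc30a4 (-0.18 ± 0.06, adjusted p = 0.0401). Slc39a4 is the importer mutated in acrodermatitis enteropathica. Slc39a12 was higher in females (0.54 ± 0.12, adjusted p = 0.00382). With the slide as a random block Slc30a4 was no longer called (limma adjusted p = 0.11), and the other 5 were, with 14.8% of all genes called in that fit.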

How the data were processed

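RNA of 24 rat lungs was hybridized, and groups came from the sample labels. The authors deposited processed spot intensities from Agilent Feature Extraction 11.5.1.1, with background already subtracted but without scaling across arrays. Control and outlier spots were left out and the spots of a probe averaged (30367 probes). Each array's 75th percentile was subtracted from its log2 signals. Of the probes, 18355 were matched by accession to symbols through a GRCr8 gene table, used for names only. A probe was retained when 5 or 6 of the 6 arrays in some group had it well above background (23616 probes), and genes with several probes were represented by their brightest. The fits used limma 3.58.1 in R 4.3.3 (lmFit and eBayes) on all 24 arrays for dose and on 8 groups of dose and sex for sex and interactions, adjusted by Benjamini-Hochberg over all genes. A gene was called at 1.5-fold and an unadjusted p-value under 0.05, the study's threshold. The scripts were tested on simulated data.

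The members and lists were chosen with earlier results of these data known. Named are all members, other zinc genes called at a dose or measured on few or no arrays, Slc30a3, Mtf1 and those that differed by sex (chosen after their values were seen), and, for Slc39a5, Mt1 and Mt2A, the 3 genes of highest correlation. Marker lists were lung, heart muscle, neutrophil and pancreas acinar genes; the log2 summed level of the 4 measured neutrophil markers lay between 1.10 and 3.66. Replicates were separate rats. Alternatives in processing were normexp (offset 50, on the median signal), quantile and median scaling, no scaling, other filters and the mean of a gene's probes. Alternatives in testing were the methods' t-test, fits of control and 1 dose, a sex term and the slide as a fixed or random block. The others were an adjusted p-value under 0.05 together with 1.5-fold, for dose and for sex, and leaving out each rat. Promoters and starts are those of RefSeq, GRCr8.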

Additional observations from a re-analysis of the deposited data

How the results depend on the processing

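With normexp background correction the member called was Slc39a5 at 600 ppm and Slc39a14 in its place at 1000 ppm, and no member was called at 1500 ppm. In that setting 1 member (Mt2A) differed between the sexes and 5 pairs passed. For normexp and for no scaling the share of all genes called is given only within the ranges at the end, so nothing is read from these counts. Pairs were 2 with quantile normalization, 2 with scaling to the array median and 25 with no scaling between arrays. No scaling also called Slc39a14 in place of Slc39a5 at 1500 ppm. The median difference of all genes was then 0.11 at 1000 ppm and -0.14 between the sexes, against 0.00 and 0.03 with the 75th percentile. With the slide as a fixed block 0 members were called at 600, 1000 and 1500 ppm, and 1 other zinc gene (Slc39a11) at each. That fit called 227, 328 and 406 of all 21255 genes in the same order. With the slide as a random block 0 members were called at 1000 and 1500 ppm, where 253 and 140 of all genes were called. In the random block fit 1 member differed between the sexes, where 14.8% of all genes did. Requiring an adjusted p-value under 0.05 with 1.5-fold left 0 members at each dose. By limma, 0, 4 and 1 of all 21255 genes had such an adjusted p-value at 600, 1000 and 1500 ppm. Between the sexes it also left 0, where only the 1.5-fold requirement was new, and Mt1 and Mt2A differed 1.29- and 1.34-fold. In males alone and in females alone 0 pairs passed, and the r between Mt1 and Mt2A was then 0.85 (adjusted permutation p = 0.15) and 0.97 (adjusted permutation p = 0.0662). With 1 rat left out, the counts were 0 to 1 at 1000 ppm and 0 to 2 at 1500 ppm. In those fits 0.977 to 2.35% and 0.961 to 1.6% of all genes were called. The pairs that passed were then 1 to 2.

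Over the alternatives other than leaving out a rat, 22 dose differences turned sign, 9 of them with normexp and 7 with no scaling, none of them called before or after. Between the sexes these values turned. The difference between females and males became 0.02 for Slc39a8, -0.03 for Slc39a14 and -0.01 for Slc30a7 with quantile normalization, -0.03 for Slc30a7 with median scaling, -0.12 for Slc39a14 and -0.15 for Slc30a7 with no scaling, and 0.10 for Slc39a1 and -0.15 for Slc39a14 with the mean of all probes. The sex difference of the 1500 ppm difference became -0.01 for Slc39a14 with normexp, and -0.08 for Slc30a1 and -0.01 for Slc30a5 with no scaling. For Slc39a8, leaving out 1 rat gave -0.08 to 0.06 for the former and -0.41 to 0.11 for the latter. The cause of these changes was not tested. No paired analysis was possible because the rats carry no shared replicate numbers. The percentage of all genes called ranged over the alternatives from 0 to 2.14 at 600 ppm, 0.0141 to 2.71 at 1000 ppm, 0.0047 to 1.91 at 1500 ppm, 3.49 to 28.5 between the sexes and 1.46 to 5.64 for the interaction.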
